A study of Mus musculus with 9 samples.

Results

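Two-pore potassium channels are pairs of subunits that each carry a pair of pore loops, and they pass the background potassium current that holds a neuron's resting potential. Because they conduct near rest, their number and kind set how much depolarizing current a sensory ending needs before it fires. Members of the TREK and TRAAK branch respond to membrane stretch, heat and lipids, TASK channels close in acid, THIK channels are inhibited by halothane, and TRESK is switched on through calcineurin. Messenger RNA for 8 genes of the family, Kcnk1, Kcnk2, Kcnk3, Kcnk4, Kcnk10, Kcnk12, Kcnk13 and Kcnk18, is described here. The list was set by name, with earlier results of these data known, and all 8 were found among the 21536 genes of the table.

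The cells came from trigeminal ganglia, which hold the sensory neurons of the face, mouth, eyes and meninges. Ganglia of many wild type FVB/N mice, aged 3 to 6 weeks by the labels and within a narrower range by the study's methods, were pooled for each of 9 Dropseq runs, and neurons were enriched on a Percoll gradient and by depletion of other cells. Dropseq catches the 3′ ends of messenger RNA on barcoded beads and counts molecules by unique molecular identifiers (UMIs). All mice were of 1 strain, age range and genotype, so the comparisons are between kinds of neuron.

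The table held 6997 barcodes with 30491529 UMIs in all, between 1000 and 190815 each. A barcode was taken as a neuron if it had 500 to 7500 genes, a UMI of at least 3 of Tubb3, Scn9a, Snap25, Nefl, Nefm and Uchl1, and none of Epcam, which left 3855 neurons with a median of 3014 UMIs. Each went to the first group whose gate it met. These were 2 or more UMIs of Trpm8, the menthol and cold receptor (244 neurons), 2 or more of Mrgprd, a receptor of nonpeptidergic nociceptors (379), 1 or more of Mrgpra3, a chloroquine receptor of itch neurons (49), 2 or more of Nppb, an itch peptide (57), and 1 or more of Cd34 (320). The other gates were 5 or more of Nefh, the heavy neurofilament of large neurons, with no Trpv1 (450), and 5 or more of Calca, the CGRP gene, with Trpv1, the capsaicin receptor (916). Together the 7 groups held 2415 neurons, and 1440 neurons met no gate.

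The barcodes do not say from which run they came, so there were no replicates, no test was possible and no p-value is given. Shares of neurons with a UMI carry exact 95% binomial intervals, levels in CPM (a gene's summed UMIs over all summed UMIs of the group, times 1e6) exact Poisson intervals, and log2 ratios exact conditional binomial intervals, all of which cover counting error only. Levels in CPM are not divided by gene length, since Dropseq counts transcripts by their 3′ end. Depth differed between groups, with medians from 3406 UMIs in the Nppb group to 5835.5 in the Cd34 group, so shares are also given after every neuron was thinned at random to 1000 UMIs.

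Some barcodes may not be separate cells. There were 528 barcodes ending in an unread base, of which 306 counted as neurons, and 140 pairs differed by a lost base and such an ending. In 49 of these pairs both barcodes were in a group, and in 38 of the 49 it was the same group. A further 6 barcode sequences were present 2 times. Some neurons (349) met more than 1 gate. Of 19 other marker genes set against the groups, 18 were highest in their own group. The exception was Nxn, at 93.2 CPM in the Calca/Trpv1 group and 86.6 in the Mrgpra3 group. All 19 are among markers that the study chose from clusters of these same cells, so this is no independent check of the groups.

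Erythroid barcodes, which should lack these channels, served as a measure of free RNA. None of the 264, with a median of 1422 UMIs, had a UMI of any of the 8 genes, which allows a share of up to 1.14% for each. Summed over 7 glia genes, the level was 162 to 513 CPM in the 7 groups, highest in the Nefh group, and 119906 CPM in 245 glia barcodes. A list of 6 pituitary genes summed to 315 CPM in the Mrgprd group and 10.6 to 138 in the others, against 2914 CPM in pituitary barcodes. In the Mrgprd group 1027 UMIs of that list were Cdh1, a cadherin, and none of its other genes had more than 1 UMI.

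The 8 genes were highest in different groups. At least 1 of them was seen in 1849 neurons, 48.0% of all (46.4 to 49.6%), and 17.4% after thinning. Kcnk1 was highest in the Nefh group, Kcnk2 in the Trpm8 group and Kcnk3 in the Calca/Trpv1 group. At full depth Kcnk12 and Kcnk13 were highest in the Mrgprd group, and Kcnk18 in the Mrgpra3 and Mrgprd groups.

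**Figure D1:**
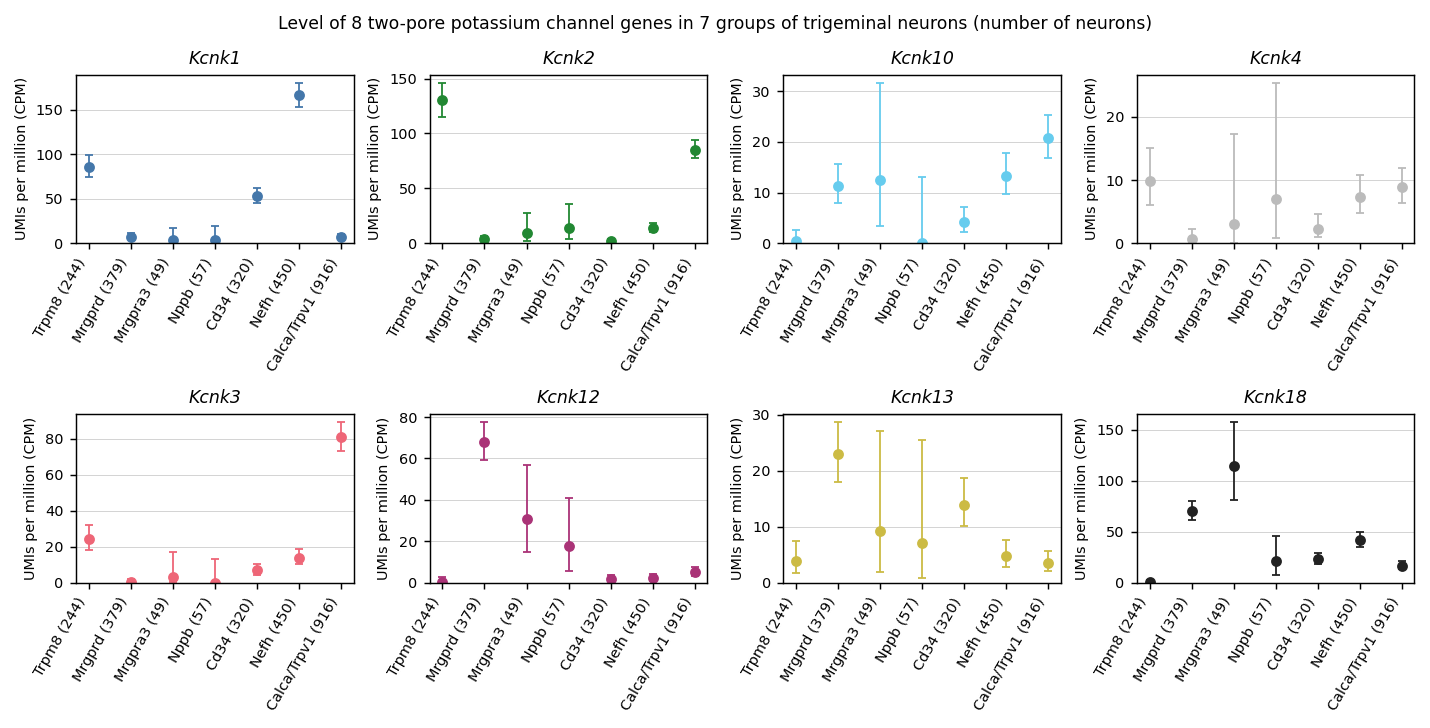
Level of each gene in the 7 groups, in CPM (a linear axis that differs between panels), with the number of neurons in brackets. Points are summed levels of a group and bars are 95% Poisson intervals that cover counting error only; Kcnk1 reaches 166 CPM in the Nefh group, Kcnk2 130 in the Trpm8 group, Kcnk3 81.1 in the Calca/Trpv1 group and Kcnk12 68.2 in the Mrgprd group.

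Kcnk1 encodes TWIK1, a weakly conducting channel (chromosome 8, 125995170 to 126030685, plus strand, GRCm38). It was seen in 39.6% (35.0 to 44.2%) of Nefh group neurons at 166 CPM (153 to 180), in 33.6% (27.7 to 39.9%) of Trpm8 neurons at 85.8 CPM (73.8 to 99.2) and in 30.6% (25.6 to 36.0%) of Cd34 neurons at 53.3 CPM (45.5 to 62.1). After thinning, the shares were 12.9%, 7.38% and 4.69%. These 3 groups stood apart from the other 4, whose levels lay between 3.09 CPM in the Mrgpra3 group and 7.39 in the Calca/Trpv1 group. The step from the Cd34 to the Calca/Trpv1 group was 2.85 on the log2 scale (2.32 to 3.41), while the lower 4 could not be put in order.

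The Nefh group exceeded the other 6 groups together in Kcnk1 by 2.50 on the log2 scale (2.32 to 2.69), or 5.67-fold. Without neurons that met more than 1 gate the ratio was 3.25. Kcnk1 also gave the most UMIs in a single neuron, 27 in the Nefh group. Of the 508 neurons with the gene, 62.4% had a single UMI and 45 had 5 or more.

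Kcnk1 was not limited to neurons, with a UMI in 23 of 245 glia barcodes (9.39%, 83.0 CPM, 58.1 to 115). In the Nefh group it was at 169 CPM in the 363 neurons with UMIs of at most 1 of the 7 glia genes and at 161 CPM in the 87 with 2 or more. In the Trpm8 group the same levels were 84.7 and 88.2 CPM, and in the Cd34 group 43.2 and 60.8 CPM.

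Kcnk2, Kcnk10 and Kcnk4 encode TREK1, TREK2 and TRAAK, the channels opened by stretch and warmth. Kcnk2 (chromosome 1, 189207930 to 189402273, minus strand) was seen in 51.6% (45.2 to 58.1%) of Trpm8 neurons at 130 CPM (115 to 146) and in 30.3% (27.4 to 33.4%) of Calca/Trpv1 neurons at 85.2 CPM (77.2 to 93.8). Thinned, these shares were 13.9% and 8.62%. The other 5 groups lay between 1.62 CPM in the Cd34 group and 14.1 in the Nppb group. The first pair are the groups gated on the thermal receptor Trpm8 and on Calca together with Trpv1. In 419 ungrouped neurons with 5 or more UMIs of Calca and none of Trpv1, Kcnk2 was at 67.4 CPM. Whether Kcnk2 goes with Trpv1 rather than with Calca was not tested.

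The Trpm8 group exceeded the Calca/Trpv1 group in Kcnk2 by 0.61 on the log2 scale (0.39 to 0.83), and the other 6 groups together by 2.03 (1.81 to 2.24), or 4.07-fold. Without neurons that met more than 1 gate it was 1.30, with 95 Trpm8 neurons left. In the Cd34 group Kcnk2 had 5 UMIs in 320 neurons, where Kcnk1 had 165.

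Kcnk10 (chromosome 12, 98429437 to 98578310, minus strand) was less abundant and spread over more groups. It was highest in the Calca/Trpv1 group at 20.7 CPM (16.9 to 25.2), in 9.06% (7.28 to 11.1%) of neurons, followed by 13.2 CPM in the Nefh, 12.4 in the Mrgpra3 and 11.3 in the Mrgprd group. The Trpm8 group, where Kcnk2 was highest, held 1 UMI of Kcnk10 in 244 neurons. Those 3 middle groups did not differ beyond their counting intervals. The Calca/Trpv1 group exceeded the other 6 together by 1.37 on the log2 scale (0.96 to 1.79), or 2.59-fold.

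Kcnk4 (chromosome 19, 6923966 to 6934515, minus strand) was the rarest of the 8, with 111 UMIs in 101 neurons. Its levels were 9.90 CPM in the Trpm8, 8.83 in the Calca/Trpv1, 7.36 in the Nefh and 7.04 in the Nppb group. The Mrgpra3 group followed at 3.09, the Cd34 group at 2.26 and the Mrgprd group at 0.611. No pair of neighbours in this order differed beyond its interval, the top pair by 0.17 on the log2 scale (-0.66 to 0.95). Against the other 6 groups together, the Mrgprd group stood at -3.52 (-6.59 to -1.63) and the Cd34 group at -1.54 (-2.90 to -0.44). The Trpm8 group stood at 0.92 (0.15 to 1.62) and the Calca/Trpv1 group at 0.93 (0.32 to 1.52). Its 3′ end overlaps Catsperz on the same strand in the annotation, so reads of the overlap cannot be assigned to 1 gene with certainty. Kcnk2 overlaps 2900042K21Rik and Pdcd5-ps and Kcnk10 overlaps 5330409N07Rik on the same strand, with the same limit.

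Kcnk3 encodes TASK1, the acid-sensitive channel (chromosome 5, 30588170 to 30625271, plus strand). It was seen in 27.6% (24.7 to 30.6%) of Calca/Trpv1 neurons at 81.1 CPM (73.3 to 89.5), and in 8.84% after thinning. The Trpm8 group followed at 24.5 CPM (18.3 to 32.1), then the Nefh group at 13.8 and the Cd34 group at 6.78, each lower than the one before it beyond the interval. In the Mrgprd group, only 1 UMI was found in 379 neurons. The Calca/Trpv1 group exceeded the other 6 by 3.05 on the log2 scale (2.76 to 3.36), or 8.30-fold. With all other neurons in the reference, ungrouped ones included, the value was 2.43.

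Kcnk12 and Kcnk13 encode THIK2 and THIK1. At full depth both were highest in the Mrgprd group, and the 250 bases before their annotated start are shown because the group was the same. The sequences are from RefSeq on GRCm38.p6, and capitals mark the E-box letters CANNTG, searched on both strands.
Kcnk12 (chr17:87797995-87798244, minus strand): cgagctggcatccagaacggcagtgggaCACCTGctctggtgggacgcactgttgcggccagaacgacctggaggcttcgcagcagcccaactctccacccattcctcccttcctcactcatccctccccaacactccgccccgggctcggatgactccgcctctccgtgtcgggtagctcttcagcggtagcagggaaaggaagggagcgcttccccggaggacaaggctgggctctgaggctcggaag
Kcnk13 (chr12:99964249-99964498, plus strand): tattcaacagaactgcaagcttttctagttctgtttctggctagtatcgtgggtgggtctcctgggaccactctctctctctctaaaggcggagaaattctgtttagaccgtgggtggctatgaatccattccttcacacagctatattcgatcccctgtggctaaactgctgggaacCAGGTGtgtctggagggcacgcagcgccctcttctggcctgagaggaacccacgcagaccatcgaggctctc

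Each window held 1 E-box, ending 216 bases before the start of Kcnk12 and 66 before that of Kcnk13. In both the letters were CACCTG, read on 1 strand or the other, which stood in 17.2% of 32851 such windows and in entries of 4 of the listed genes. An E-box of any kind stood in 66.2% of all windows. The letters TGTGGT or ACCACA, read by Runx factors, were in 14.0% of all windows and in none of the 11 entries of 7 listed genes, and Kcnk3 had no entry. A match is a description of letters only, and 3′ counts do not show which start was used.

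Kcnk12 (chromosome 17, 87745801 to 87797994, minus strand) was seen in 33.2% (28.5 to 38.2%) of Mrgprd neurons at 68.2 CPM (59.5 to 77.7), or 6.33% after thinning, where the 49 Mrgpra3 neurons had 6.12%. The thinned level, in contrast, was higher in the Mrgpra3 than in the Mrgprd group, at 81.6 CPM from only 4 UMIs. It was at 30.9 CPM (14.8 to 56.9) in the Mrgpra3 and 17.6 (5.72 to 41.1) in the Nppb group, and below 5 CPM in each of the other 4. The Mrgprd group exceeded the other 6 by 4.21 on the log2 scale (3.77 to 4.67), or 18.5-fold, the largest of the 8 ratios. Of all neurons with 2 or more UMIs of Kcnk12, 89.7% were in the Mrgprd group.

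Kcnk13 (chromosome 12, 99964499 to 100062682, plus strand) was seen in 16.9% (13.3 to 21.0%) of Mrgprd neurons at 22.9 CPM (18.0 to 28.7) and in 11.6% (8.27 to 15.6%) of Cd34 neurons at 13.9 CPM (10.1 to 18.7). The step between them was 0.72 on the log2 scale (0.16 to 1.30). After thinning the order turned, with 6 neurons in each group, 1.58% (0.583 to 3.41%) of the Mrgprd and 1.88% (0.691 to 4.04%) of the Cd34 neurons, which were not told apart. The Cd34 group separated the THIK genes, with 43 UMIs of Kcnk13 and 5 of Kcnk12. The Mrgprd group exceeded the other 6 in Kcnk13 by 1.86 (1.40 to 2.32), or 3.63-fold, and by 1.55 after thinning, where the Cd34 group had the larger ratio, 1.84. Kcnk13 was also found in 8 of 245 glia barcodes.

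Kcnk18 encodes TRESK, known for its role in trigeminal nociceptors and migraine (chromosome 19, 59219214 to 59237374, plus strand). The level was 114 CPM (80.6 to 158) in the Mrgpra3, 70.0 (61.2 to 79.7) in the Mrgprd and 41.8 (35.2 to 49.3) in the Nefh group, each step exceeding its interval. It was 23.3 CPM in the Cd34, 21.1 in the Nppb and 16.6 in the Calca/Trpv1 group, where neither neighbouring pair differed beyond its interval. The Trpm8 group had 1 UMI in 244 neurons, 5.14 below the Calca/Trpv1 group on the log2 scale (2.62 to 10.5).

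The place of the Mrgpra3 group at the top of Kcnk18 rested on 37 UMIs in 16 of 49 neurons. The shares were 32.7% (19.9 to 47.5%) there and 38.0% (33.1 to 43.1%) in the Mrgprd group, and 6.12% and 6.33% after thinning. With each neuron given the same weight, or thinned, the Mrgprd group came first, and the ratio below was 1.34 and 0.99. At full depth the Mrgpra3 group exceeded the other 6 by 1.88 on the log2 scale (1.35 to 2.36), or 3.67-fold, and the Mrgprd group its own other 6 by 1.54 (1.29 to 1.79), or 2.91-fold.

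**Figure D2:**
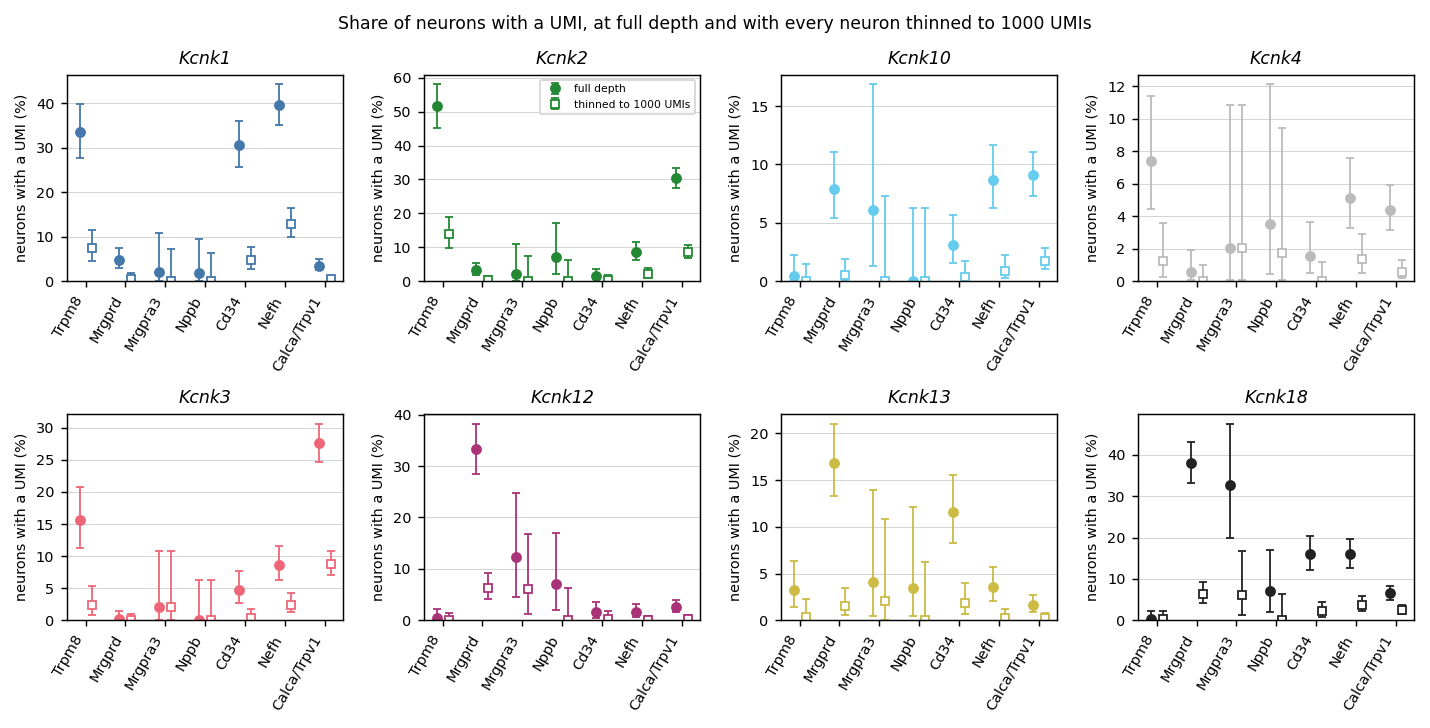
Share of neurons with a UMI of each gene in the 7 groups (percent, linear axes that differ between panels), at full depth (filled circles) and with every neuron thinned to 1000 UMIs (open squares), with 95% binomial intervals for counting error. Kcnk2 in the Trpm8 group falls from 51.6% to 13.9% on thinning and remains above its share in the Mrgprd, Cd34 and Nefh groups.

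The same ratio was taken for all 10281 genes with 100 or more UMIs in the grouped neurons, and at least 3-fold was set as the mark. It was passed in at least 1 group by 6 of the 8 channel genes, against 11.5% of all genes. All 8 had the 100 UMIs, but Kcnk4, Kcnk12 and Kcnk13 only with those of their highest group, outside of which they had 80, 52 and 89, so for them the count cannot be read against that share. The number was 4 without neurons that met more than 1 gate, where Kcnk18 reached 2.80-fold at most, Kcnk13 was left with 99 UMIs, under the 100 required, and Kcnk2 passed in the Calca/Trpv1 but not in the Trpm8 group. In the Trpm8 group the gene was Kcnk2, where 1.25% of genes passed, in the Nefh group Kcnk1 (2.3%) and in the Mrgpra3 group Kcnk18 (1.46%). In the Mrgprd group they were Kcnk12 and Kcnk13 (2.4%), the latter under the mark after thinning, and in the Calca/Trpv1 group Kcnk2 and Kcnk3 (2.51%). None passed in the Nppb group (1.32%) or the Cd34 group (1.6%). In the Mrgpra3 group Kcnk18 was under the mark after thinning (log2 0.99) and with equal weight per neuron (1.34). Without neurons that met more than 1 gate it was also under the mark there (1.46). With equal weight per neuron Kcnk18 passed in the Mrgprd group (3.37-fold). By summed counts at full depth Kcnk4 and Kcnk10 passed nowhere, the first at 1.89-fold and the second at 2.59-fold in their highest groups. Kcnk10 passed in the Calca/Trpv1 group with thinned counts (3.74-fold, of 23 UMIs in all) and with equal weight per neuron (3.66-fold). The shares of all genes hold for summed counts at full depth and are not given for the alternatives.

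The summed level of the 8 genes was 263 CPM in the Nefh, 256 in the Trpm8, 228 in the Calca/Trpv1, 186 in the Mrgpra3 and 185 in the Mrgprd group, and lower in the Cd34 group at 107 and the Nppb group at 70.4 CPM (43.0 to 109). In the Nefh group 63.2% of these UMIs were Kcnk1. Kcnk2 (50.9%) and Kcnk1 (33.6%) made up most in the Trpm8 group, and Kcnk2 (37.3%) and Kcnk3 (35.5%) in the Calca/Trpv1 group. Kcnk18 (37.9%) and Kcnk12 (36.9%) led in the Mrgprd group, Kcnk18 in the Mrgpra3 group (61.7%) and Kcnk1 in the Cd34 group (49.8%).

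**Figure D3:**
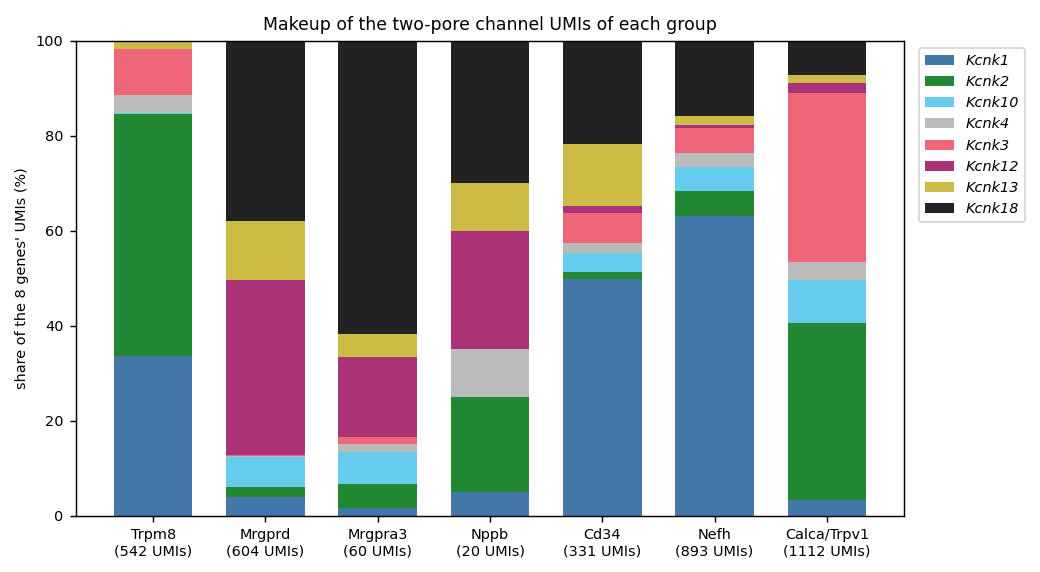
Makeup of the UMIs of the 8 genes in each group, as a stacked share in percent from 0 to 100, with the number of UMIs below each bar. Kcnk1 fills 63.2% of the Nefh bar and Kcnk18 61.7% of the Mrgpra3 bar; the Nppb bar rests on 20 UMIs.

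Groups were then divided by other marker genes. Within the Trpm8 group, Kcnk1 was at 137 CPM in 105 neurons with Ociad2 or Cpne9 and 12.3 in 51 with Ndrg1 or Angpt4, a difference of 3.47 on the log2 scale (2.21 to 5.12). Kcnk2 followed the same direction by less, with 148 and 81.4 CPM (0.86, 0.30 to 1.46). Kcnk3 went the other way, with 16.3 and 54.3 CPM, so the Ndrg1 or Angpt4 neurons were higher by 1.73 (0.72 to 2.79). By a division chosen after seeing the data, the 128 Trpm8 neurons that also met the Nefh gate had 121 CPM of Kcnk1, and the 116 that did not had 32.3, a log2 difference of 1.90 (1.31 to 2.55). In the Cd34 group the same division gave 55.3 and 51.9 CPM (0.09, -0.38 to 0.55).

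Within the Nefh group, Kcnk1 was at 283 CPM in 91 neurons with 2 or more UMIs of Ntrk2, the BDNF receptor, of which 72.5% had a UMI. It was at 58.0 CPM in 82 with Calca and 148 in the other 277. The level in the Calca neurons rested on 50 UMIs in 17 neurons, with 23 of the UMIs in a single neuron. Counting intervals do not cover such a spread between neurons. Ntrk2 exceeded Calca neurons by 2.29 on the log2 scale (1.85 to 2.75) and the rest by 0.94 (0.69 to 1.20). Kcnk4 and Kcnk10 went in the opposite direction. Kcnk4 was at 16.2 CPM in the Calca and 1.94 in the Ntrk2 neurons (log2 3.07, 0.94 to 6.25), and Kcnk10 at 22.1 and 6.79 (1.70, 0.39 to 3.19). Kcnk18 was at 60.2 CPM in Ntrk2, 46.4 in Calca and 26.6 in the remaining neurons, of which the first 2 did not differ beyond the interval.

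Within the Calca/Trpv1 group, Kcnk3 was at 121 CPM in 207 neurons with Sstr2 or Dcdc2a, 65.3 in 396 with Trpa1, Mfap5 or Gpr83, and 80.1 in 164 with Cyp1b1 or Kit. The first exceeded the second by 0.89 on the log2 scale (0.55 to 1.22). Kcnk2 was at 90.8, 92.0 and 75.5 CPM in these divisions. The first did not differ from the second or from the third beyond the interval, and the second was not set against the third. Kcnk2 was at 57.0 CPM (37.9 to 82.4) in the 149 neurons with none of these markers. Kcnk10 was lowest in the Trpa1 division at 10.1 CPM, against 32.3 in the Sstr2 division (1.67, 0.90 to 2.48). Kcnk18 was at 4.50 CPM in the Sstr2 division, 19.8 in the Trpa1 division and 46.8 in the 149 neurons with none of these markers, the reverse of Kcnk3.

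Within the Mrgprd group, Kcnk18 was at 117 CPM in 48 neurons with Agtr1a or Mrgpra1 and 68.3 in 102 with Otoa, Prkcq or Mrgprb5 (log2 0.78, 0.07 to 1.47). Kcnk12 had 27.5 and 54.6 CPM and Kcnk13 24.1 and 18.8, and neither differed beyond its interval. In the other 229 neurons of the group Kcnk18 was at 64.7, Kcnk12 at 76.4 and Kcnk13 at 23.8 CPM, with a median of 6446 UMIs against 3865 and 4722 in the divisions.

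**Figure D4:**
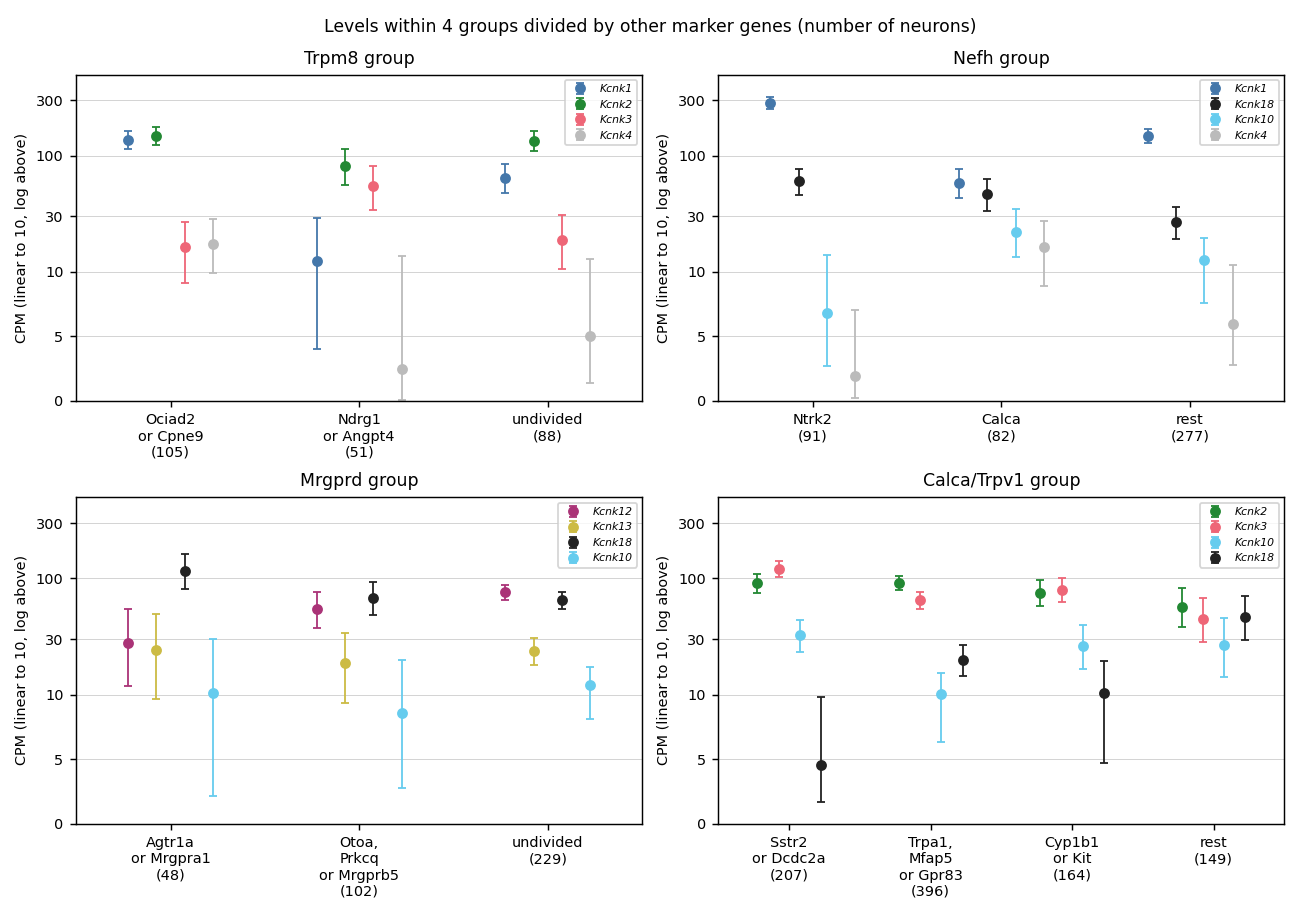
Levels in CPM (axis linear to 10 and logarithmic above) of the genes described in the text within 4 groups divided by other markers, with the number of neurons in brackets and 95% Poisson intervals for counting error. Kcnk1 is at 137 and 12.3 CPM in the Trpm8 divisions, and in the Calca/Trpv1 group Kcnk3 and Kcnk18 run in opposite directions, from 121 to 44.8 and from 4.50 to 46.8 CPM.

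Pairs of the genes were counted in the same neurons. In the Calca/Trpv1 group, Kcnk2 and Kcnk3 were both seen in 98 neurons, where the product of their shares gives 76.8. Kcnk3 and Kcnk18 were seen together in 7, where it gives 16.6. In the Mrgprd group Kcnk12 and Kcnk13 were together in 36 neurons against 21.3, and in the Trpm8 group Kcnk1 and Kcnk2 in 56 against 42.3. Neurons with a UMI of any of the 8 genes were deeper than those without, for Kcnk12 with a median of 9628 UMIs against 2873, and the part of depth in such counts was not tested. After thinning the largest of these pairs held 8 neurons, too few to compare.

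The 93 ungrouped neurons with 1 UMI of Trpm8 had 141 CPM of Kcnk2 (101 to 190). Kcnk1 was at 33.5 CPM (16.1 to 61.7) in them and at 85.8 in the Trpm8 group. Within that group Kcnk1 was at 44.2 CPM in neurons with 2 to 3 UMIs of Trpm8 and 107 in those with 4 or more. Kcnk2 was at 133 and 129 CPM in the same neurons. The 110 ungrouped neurons with 1 UMI of Mrgprd had 84.8 CPM of Kcnk18, 40.6 of Kcnk12 and 44.2 of Kcnk13. These rested on 23, 11 and 12 UMIs, and there was no UMI of Kcnk2, Kcnk3 or Kcnk10. The 78 ungrouped neurons with 4 UMIs of Nefh and no Trpv1 had 68.4 CPM (39.1 to 111) each of Kcnk2 and Kcnk3. Kcnk1, the gene highest in the Nefh group, was at 34.2 CPM (14.8 to 67.3) in them. These levels rested on 16, 16 and 8 UMIs, with 7 of those of Kcnk3 in a single neuron, and their intervals overlap. In 419 ungrouped neurons with 5 or more UMIs of Calca and none of Trpv1, Kcnk3 was at 86.8 and Kcnk2 at 67.4 CPM. Over all 1440 ungrouped neurons, with a median of 1826.5 UMIs, the levels ran from 2.81 CPM for Kcnk4 to 48.6 for Kcnk2. Their summed level of the glia genes was 8548 CPM. Kcnk1 was there at 31.3 CPM (25.1 to 38.6) in the 1229 neurons with UMIs of at most 1 of the 7 glia genes and at 61.2 (44.8 to 81.7) in the 211 with 2 or more.

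The other two-pore genes were near absent. Of Kcnk5, Kcnk6, Kcnk7, Kcnk9, Kcnk15 and Kcnk16, the last was not among the genes of the table. The other 5 had between 1 and 10 UMIs each in 3855 neurons, Kcnk7 and Kcnk9 with 10. The sodium leak channel Nalcn, which carries the opposing inward current at rest, ranged from 21.1 CPM (7.75 to 46.0) in the Nppb to 46.2 (40.4 to 52.6) in the Calca/Trpv1 group. Its subunit Unc80 ranged from 25.7 CPM in the Mrgprd to 136 in the Nefh group. Of a longer list of partners of these channels, only Akap5 and calcineurin genes are described for all groups. Others also differed, such as Prkca, at 759 CPM in the Mrgprd and 26.9 in the Trpm8 group, while Copb1 ranged from 102 to 122. Akap5, the anchor protein bound by TREK1, was at 66.9 CPM in the Trpm8 group, 31.8 in the Nefh group and 0 to 6.19 in the others. In the Calca/Trpv1 group, where Kcnk2 was also high, Akap5 was at 2.87 CPM. Ppp3ca, a catalytic subunit of calcineurin, which activates TRESK, was at 1398 CPM in the Nppb, 1245 in the Calca/Trpv1, 1185 in the Mrgpra3, 777 in the Mrgprd and 546 in the Nefh group, and at 321 in the Cd34 and 287 in the Trpm8 group. The other calcineurin genes listed ranged less, Ppp3cb from 197 to 259 CPM and Ppp3r1 from 136 to 205, with 211 and 138 in the Trpm8 group.

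Genes with the most similar profile over the 7 groups were found among 8732 candidates by Pearson's r of log2(CPM + 10), as a description over 7 groups that share libraries. For Kcnk1 they were Tceal6 (0.992), Ankrd55 (0.991) and Cdh18 (0.985), and for Kcnk2 Zfp536 (0.985) and Rxrg (0.984). Those of Kcnk3 were Errfi1 (0.966), Gprasp1 (0.958) and Tmem176a (0.957). Closest to Kcnk12 were Mink1 (0.984), Ksr2 (0.977) and Gmfb (0.975), to Kcnk13 Ms4a3 (0.982), Trim26 (0.982) and Ppef1 (0.975), and to Kcnk18 Slc7a1 (0.983), Ttl (0.978) and Atp6v0d1 (0.974). Kcnk10 was closest to Lpp (0.969), Jph3 (0.945) and Socs5 (0.941), and Kcnk4 to Arl2 (0.983), Bola1 (0.979) and Mmgt2 (0.975).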

How the data were processed

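The authors mapped the reads and deposited 1 table of UMI counts, genes by barcodes, raw and not normalized, in which the 9 runs are merged. STAR 2.5.3a and the mm10 build are named in the submitters' processing notes. The deposited counts were used as whole numbers, and the study states 1 library more than the table holds. The listed genes, gates, divisions and marker lists were chosen with earlier results of these data known. Counts were summed per group and divided by the group's UMIs (CPM). Exact intervals were computed with scipy 1.17.1, numpy 2.4.6, pandas 2.3.3 and Python 3.11.15. Thinning used a fixed random seed. Named genes were the 3 with the highest Pearson r per listed gene, with 200 or more UMIs in the grouped neurons and without gate genes. For Kcnk2, 1 gene of this rule is not reported here. No barcode was removed as a doublet. An alternative left out neurons that met more than 1 gate, which by the order of the gates takes none from the Nefh and Calca/Trpv1 groups and leaves 95 of 244 Trpm8 neurons, so it is no removal of doublets. Non-neuronal barcodes had 200 to 8500 genes, at most 1 neuron marker and at least 3 markers of 1 list (2 for pituitary). Positions are from GENCODE M21 (GRCm38, the same assembly as mm10). Nothing could be computed per run.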

Additional observations from a re-analysis of the deposited data

Results flagged for a closer look

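Signals of the listed genes were also present in barcodes outside the neurons, above the 1.14% that a count of 0 in 264 erythroid barcodes allows (exact 95% upper limit 1.39%). Kcnk1 was seen in 9.39% of 245 glia barcodes and 9.06% of 298 pituitary barcodes, Kcnk2 in 8.05% of pituitary barcodes, and Kcnk13 in 3.27% of glia barcodes. Median depths were 1452 UMIs in glia, 1798 in pituitary and 1422 in erythroid barcodes. Thinned to 1000 UMIs, Kcnk1 was in 7.35% of glia and 6.38% of pituitary barcodes, Kcnk2 in 2.35% (0.950 to 4.78%) of pituitary barcodes and Kcnk13 in 2.04% (0.666 to 4.70%) of glia barcodes, and both of these intervals reach below that limit.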

How the results depend on the processing

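The ratio of each gene's highest group and the number of genes past 3-fold were recomputed under 9 alternatives. Of these, 2 were chosen after seeing the data, leaving out barcodes ending in an unread base and leaving out neurons with 2 or more glia markers. Shares of the highest group were also recomputed, but not with equal weight per neuron or all other neurons as reference. Of 56 shares, 12 moved by more than their counting interval, every share on thinning among them. Divisions within groups, pairs of genes and the makeup of the summed level were not recomputed. Of 72 ratios of the highest group, none changed sign, 57 moved by less than their counting interval and 15 by more, and the number of genes past 3-fold was 4 to 7 against 6. It was 4 without neurons that met more than 1 gate (Kcnk18 under 3-fold, Kcnk13 under the 100 UMIs required), 5 without neurons with glia markers (Kcnk13 at 90 UMIs), and 7 with equal weight per neuron, where Kcnk10 was gained. With thinned counts, for which no minimum of UMIs was set, it was also 7. Kcnk18 was lost (2.48-fold at most), and Kcnk10 (3.74-fold, of 23 UMIs in all) and Kcnk4 (3.22-fold, of 16) were gained. Kcnk13, of 17 UMIs in all, passed in the Cd34 (3.57-fold) but not in the Mrgprd group (log2 1.55). No share of all genes past 3-fold is given for the alternatives, so these numbers cannot be read against one. On the log2 scale, thinning gave 2.89 for Kcnk1, 1.78 for Kcnk2, 1.90 for Kcnk10 and 0.99 for Kcnk18. Equal weight per neuron gave 2.83, 1.64, 1.87 and 1.34 for the same genes. Leaving out neurons that met more than 1 gate gave 3.25 for Kcnk1, 2.32 for Kcnk13 and 1.30 for Kcnk2, the last with 95 of 244 Trpm8 neurons left. Leaving out neurons with glia markers gave 2.74 for Kcnk1 and 1.79 for Kcnk2, raising every gate by 1 UMI gave 1.77 for Kcnk2, and all other neurons as reference gave 2.43 for Kcnk3. The cause was not tested. Without the barcodes ending in an unread base, the values were 2.48 for Kcnk1, 2.05 for Kcnk2, 2.96 for Kcnk3, 0.79 for Kcnk4, 1.43 for Kcnk10, 4.21 for Kcnk12, 1.73 for Kcnk13 and 1.94 for Kcnk18, each in the same highest group. After thinning, the 49 neurons of the Mrgpra3 group came first for Kcnk4, Kcnk12 and Kcnk13, and with raised gates its 37 neurons came first for Kcnk10. No paired analysis was possible because the barcodes name no run, and for the same reason no run could be left out in turn.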
